A study of Sus scrofa with 6 samples.

Results

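The insulin-like growth factor (IGF) axis was followed in 2 muscles of the pig as the genes of its ligands, IGF1 and IGF2, its receptors, IGF1R and IGF2R, and its binding proteins, IGFBP2 to IGFBP7. Members were taken by gene symbol in the Ensembl annotation of Sscrofa11.1, and 8 of the 10 listed symbols were found, among 25973 genes with mRNA transcripts. IGF2 and IGFBP3 were not found by symbol, so they were left out of all counts of members and are described by position only. The samples were longissimus thoracis (LT), a muscle along the back, and semitendinosus (ST), a muscle of the hind limb, from 3 wild-type (WT) Min pigs, a Chinese local breed. The pigs had 1 common age and received no treatment named in the labels, and their sex is not given in the sources used here. RNA of both muscles of each pig was depleted of rRNA and sequenced in 6 libraries, 3 per muscle, and the study asked which transcripts differ between muscles that differ in meat quality. The replicate numbers are used as pig numbers.

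IGF1 and IGF2 are secreted peptides that bind IGF1R, a receptor tyrosine kinase whose signal runs through the insulin receptor substrates to the PI3K-AKT-mTOR and RAS-MAPK branches. IGF2R carries no such kinase and takes IGF2 into the cell for breakdown. The binding proteins hold IGFs outside the cell, and proteases release them. In skeletal muscle the axis is known for promoting growth of fibres, division and differentiation of myoblasts, and regeneration.

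The values are FPKM (fragments per kilobase of transcript, scaled to the mapped fragments of the library), summed over the transcripts of each gene, so levels of different genes can be set side by side. The files hold no fragment counts, so the depth behind single values is unknown. Among skeletal muscle markers, ACTA1, CKM and DES stood between 1229 and 3800 summed FPKM in every library, while MB, TTN and the MYH genes of the list had no gene under their symbol. ST of pig 2 stood apart from the other ST libraries in its fibre type genes, with TNNT1, the slow troponin T, at 382 summed FPKM in contrast to 1746 and 2079, and TNNT3, the fast troponin T, at 4519 in contrast to 1046 and 161. Mitochondrial transcripts took an estimated 2.91% to 4.25% of fragments in LT, against 6.15% to 8.48% in ST, from FPKM times transcript length. These are bulk samples, so fewer cells of a type and less RNA per cell cannot be told apart.

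None of the 8 members differed between the muscles by the call used here, an adjusted p under 0.05 in limma, over 19672 genes, with an absolute log2 fold change above 1. Over all genes tested, 113 (0.574%) met it. An unadjusted p under 0.05 was reached by 2 of the 8 members, IGF1R and IGFBP7, and by 18.8% of all genes. Values of LT and ST did not overlap for 1 member, IGFBP7, and for 24.7% of all genes. With the pig as a block, 0 of 8 members and 4.06% of all genes were called. The log2 fold change of ST over LT was above 0 for 7 of 8 members and for 61.3% of all genes, with a median of 0.15 over the members and 0.13 over all genes. ST was the higher muscle in all 3 pigs for IGF1R, IGFBP4 and IGFBP7, 3 of 8 members, and for 32.0% of all genes.

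**Figure D1:**
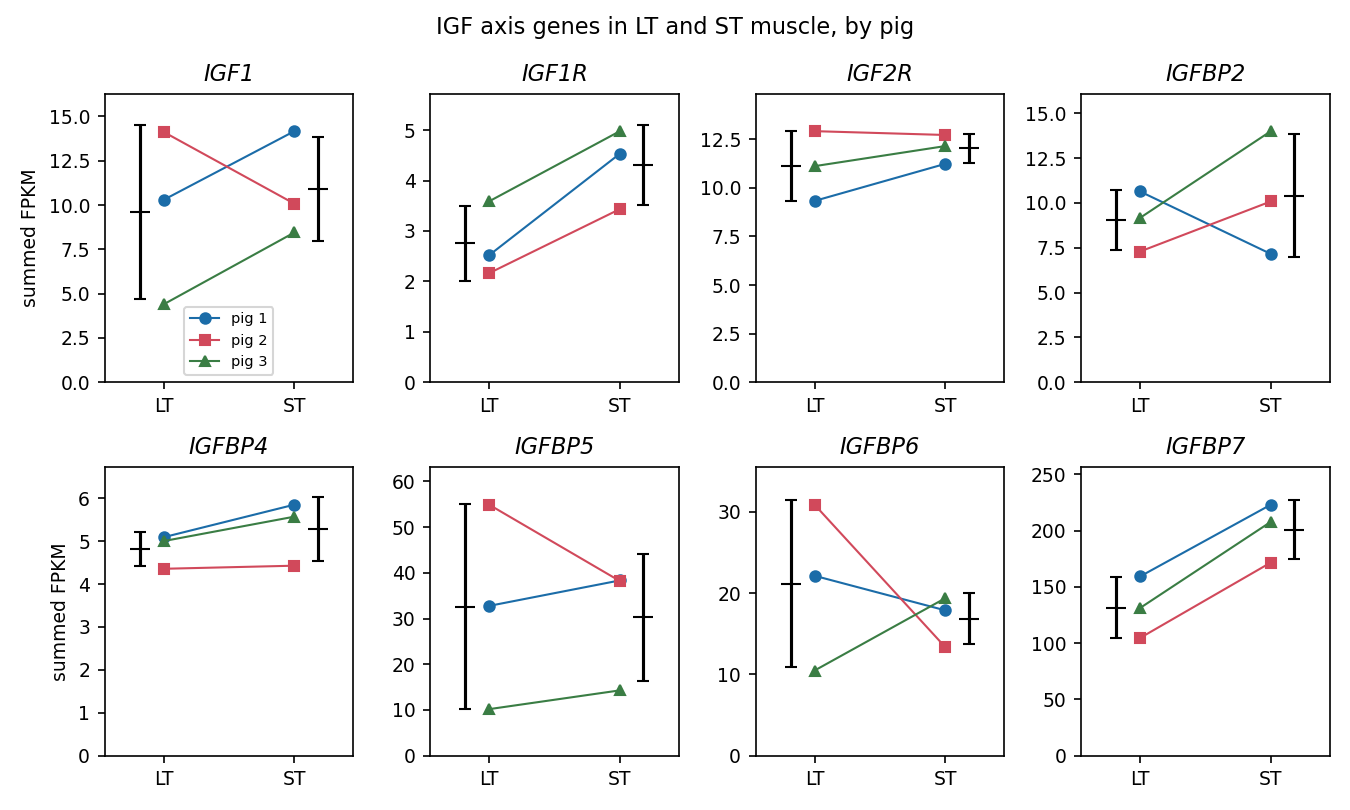
Summed FPKM of the 8 members (vertical axes, each from 0) in LT and ST (horizontal axes); each line joins both muscles of 1 pig, and bars show the mean and SD of 3 libraries. IGFBP7 is the only panel in which every ST value, from 172 to 223, stands above every LT value, from 105 to 159.

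IGFBP7 had the highest level of the axis, with a mean of 166 summed FPKM over the 6 libraries. It was followed by IGFBP5 at 31.5, IGFBP6 at 19.02, IGF2R at 11.6, IGF1 at 10.3, IGFBP2 at 9.72, IGFBP4 at 5.05 and IGF1R at 3.54. In this order only IGFBP7 and IGFBP5, and IGFBP2 and IGFBP4, are neighbours whose ranges over the libraries did not overlap. IGF2R and IGF1 were not separated, since IGF2R had the higher level in 3 of 6 libraries. IGFBP4 exceeded IGF1R in 6 of 6 libraries, although their ranges over the pigs overlapped.

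IGF1, the ligand made in liver and in muscle itself, is annotated on the plus strand at chr5:81775970-81848037 (ENSSSCG00000000857). Its summed FPKM was 10.3, 14.1 and 4.39 in LT of pigs 1, 2 and 3, against 14.2, 10.1 and 8.45 in ST. Pig 3 was lowest in both muscles, ST was higher in 2 of 3 pigs, and the muscles overlapped. The means were 9.60 ± 4.91 in LT and 10.9 ± 2.95 in ST (SD, n = 3), with a log2 fold change of 0.30 (SE 0.41, limma adjusted p = 0.739). Without LT of pig 3 the log2 fold change turned to −0.18.

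The files list 8 IGF1 transcripts, and 1 of them, ENSSSCT00000000936 with 5 exons and 850 nt, carried most of the gene. Its share of the summed FPKM ran from 65.7% in LT of pig 2 to 91.6% in LT of pig 3. ENSSSCT00000000935 was at 2.71 FPKM in LT of pig 2 and 2.96 in ST of pig 1, and between 0.0130 and 0.0599 in the other 4 libraries. Thus this transcript was prominent in 1 library of each muscle, from different pigs. ENSSSCT00000034991 was listed at 0 in LT of pig 3 and lay between 0.829 and 1.70 FPKM elsewhere. None of the IGF1 transcripts separated the muscles among those tested.

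IGF2 has no gene under its symbol, and RefSeq places it on chr2:1469183-1496417 of the same build. The gene of the files that covers this span, ENSSSCG00000035293 on the minus strand, was chosen by position after the files had been seen. Its summed FPKM was 9.23, 7.63 and 11.5 in LT, against 15.7, 9.58 and 14.3 in ST of pigs 1 to 3. ST was higher in all 3 pigs, though LT of pig 3 exceeded ST of pig 2. The log2 fold change was 0.47 (SE 0.24, 95% interval −0.10 to 1.03), with an adjusted p of 0.349 by limma and an exact permutation p of 0.2, where 0.1 is the smallest that 3 against 3 libraries allow.

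Of the 6 transcripts at the IGF2 position, ENSSSCT00000039341 was present in every library, at 3.74, 7.40 and 11.2 FPKM in LT, against 6.89, 9.56 and 13.8 in ST. Pig 1 was lowest and pig 3 highest in both muscles. The remaining sum of pig 1 came from different transcripts in its muscles, with ENSSSCT00000049151 at 5.29 FPKM in LT and listed at 0 in ST, and ENSSSCT00000050274 listed at 0 in LT and at 8.67 in ST. Neither of these exceeded 0.132 FPKM in pigs 2 and 3. The ratio of the IGF2 position to IGF1 was 0.897, 0.540 and 2.61 in LT, against 1.11, 0.951 and 1.69 in ST, so pig 3 had the highest ratio in both muscles.

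IGF1R, the signalling receptor, lies on the minus strand at chr1:137387925-137690666 (ENSSSCG00000030560). Its level was the lowest of the 8 members, with 2.52, 2.16 and 3.59 summed FPKM in LT, against 4.53, 3.43 and 4.98 in ST. ST was higher in every pig, and the groups overlapped only because LT of pig 3 exceeded ST of pig 2. The means were 2.76 ± 0.742 in LT and 4.32 ± 0.796 in ST (SD, n = 3), 1.57-fold. The log2 fold change was 0.64 (SE 0.25, 95% interval 0.07 to 1.21), with an unadjusted p of 0.0315 and an adjusted p of 0.215 by limma. With the pig as a block the SE was 0.17 and the adjusted p 0.0815, and without ST of pig 2 the log2 fold change was 0.80 (adjusted p = 0.117). That library was the lowest of ST, and without any other single library the adjusted p was from 0.177 to 0.484. All of the signal was assigned to ENSSSCT00000005311, while the other transcript was listed at 0 throughout.

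IGF2R, the clearing receptor, lies on the minus strand at chr1:7368103-7472548 (ENSSSCG00000004044). Its summed FPKM was 9.33, 12.9 and 11.12 in LT, against 11.2, 12.7 and 12.2 in ST. The pigs kept the same order in both muscles, with pig 1 lowest and pig 2 highest, and the muscles overlapped. The log2 fold change was 0.12 (SE 0.18, 95% interval −0.29 to 0.54; adjusted p = 0.757, limma), and 48 exons were joined in its single main transcript.

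The ratio of IGF2R to IGF1R was 3.70, 5.98 and 3.098 in LT, against 2.48, 3.70 and 2.44 in ST. The ratio was lower in ST in all 3 pigs, but ST of pig 2 lay within the range of LT, and the exact permutation p was 0.2.

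**Figure D2:**
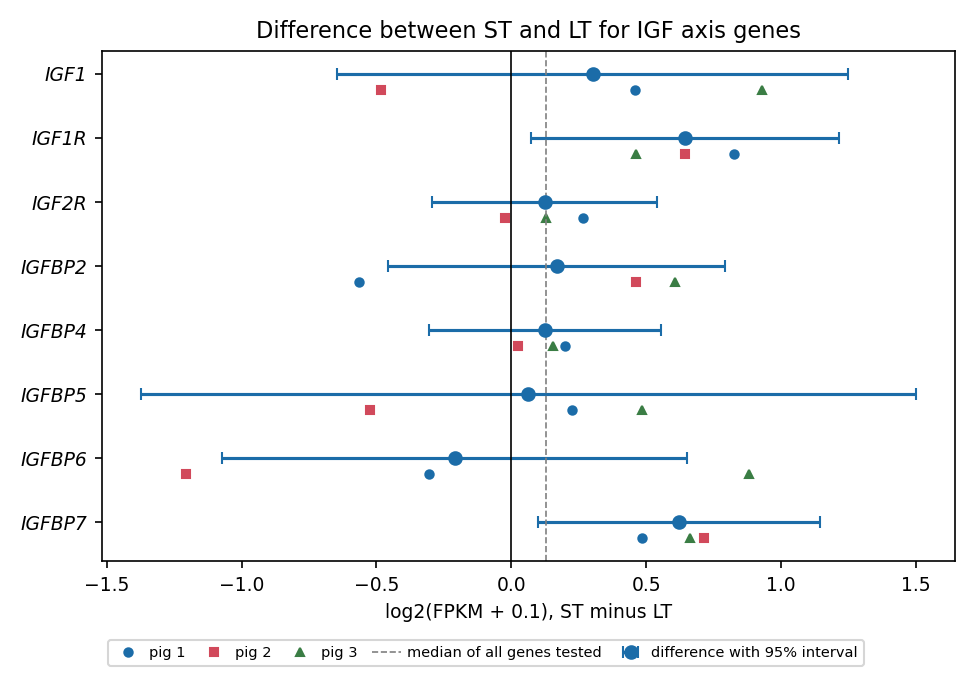
Log2 fold change of ST over LT (horizontal axis, log2(FPKM + 0.1)) for each member; large points and bars are the limma estimate with its 95% interval, small symbols are single pigs, and the dashed line is the median of all genes tested, 0.13. Intervals of IGF1R and IGFBP7 lie above 0, and those of the other 6 members include 0.

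The binding proteins IGFBP7, IGFBP5, IGFBP6, IGFBP2 and IGFBP4 were measured. IGFBP7, on the minus strand at chr8:56279894-56357835 (ENSSSCG00000008913), binds IGFs weakly and is abundant in the wall of blood vessels. Its summed FPKM was 159, 105 and 131 in LT, against 223, 172 and 208 in ST. Every ST library exceeded every LT library, and the pigs kept the same order in both muscles. The means were 132 ± 27.4 in LT and 201 ± 26.4 in ST (SD, n = 3), 1.53-fold, and the exact permutation p was 0.1, the smallest possible.

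On the log2 scale IGFBP7 differed by 0.62 (SE 0.23, 95% interval 0.10 to 1.14), with an unadjusted p of 0.0253 and an adjusted p of 0.196 by limma. The blocked fit gave an SE of 0.17 and an adjusted p of 0.0882. Without ST of pig 2, the lowest ST library, the log2 fold change was 0.73 (adjusted p = 0.104). Without any other single library the adjusted p was from 0.245 to 0.477. After quantile normalization the log2 fold change was 0.42 with an unadjusted p of 0.0830. Therefore, the sign held in each of these fits and the call was made in none.

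Both main transcripts of IGFBP7 had the same difference. ENSSSCT00000009759, of 890 nt, was at 129, 81.0 and 103 FPKM in LT, against 175, 136 and 166 in ST. ENSSSCT00000047181, of 4236 nt, was at 28.2, 21.4 and 26.5 FPKM in LT, against 44.01, 34.1 and 38.3 in ST. Their log2 fold changes were 0.63 and 0.61, without overlap of the muscles in either. The shorter transcript held 77.4% to 80.8% of the gene in every library, so the mixture of transcripts hardly varied.

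IGFBP5, which binds IGFs and the matrix of connective tissue, is on the minus strand at chr15:118857479-118878522 (ENSSSCG00000025924). Its summed FPKM was 32.8, 54.9 and 10.2 in LT, against 38.3, 38.2 and 14.3 in ST. Pig 3 was clearly lowest in both muscles, and the muscles overlapped almost fully. The range of the 3 pig means was 1.92 on the log2 scale, and the difference between the muscles was 0.06 (SE 0.62, adjusted p = 0.968, limma). The pig block reduced the SE to 0.22. Leaving out LT of pig 3 gave −0.62 and leaving out LT of pig 2 gave 0.59, so no direction can be given.

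IGFBP6, which prefers IGF2 over IGF1, is on the plus strand at chr5:18352314-18357224 (ENSSSCG00000000261). It was the only member with a lower mean log2 level in ST, with 22.1, 30.9 and 10.47 summed FPKM in LT, against 17.9, 13.3 and 19.4 in ST. LT spread over the whole range of ST, and pig 3 ran opposite to the others. Its log2 fold change was −0.21 (SE 0.37, adjusted p = 0.808, limma), and 0.13 without LT of pig 2.

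One IGFBP6 transcript did separate the muscles. ENSSSCT00000067343, of 595 nt, was listed at 0, 0 and 0.422 FPKM in LT and was at 3.13, 1.19 and 1.68 in ST. All ST libraries exceeded all LT libraries, with an unadjusted p of 0.00271 and an adjusted p of 0.257 by limma over 52102 transcripts. The main transcript, ENSSSCT00000000280 of 1963 nt, held 81.2% ± 7.65 of the gene in LT and 70.9% ± 4.42 in ST (SD, n = 3). Its share was lower in every ST library than in every LT library, with an exact permutation p of 0.1, while its level overlapped between the muscles. The remaining transcript, ENSSSCT00000071924, lay between 1.92 and 7.43 FPKM.

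IGFBP2, the neighbour of IGFBP5 on the opposite strand at chr15:118822047-118850976 (ENSSSCG00000035392), was at 10.6, 7.29 and 9.17 summed FPKM in LT, against 7.15, 10.1 and 14.0 in ST. ST of pig 1 was the lowest and ST of pig 3 the highest library, so ST enclosed LT. ST over LT gave a log2 fold change of 0.17 (SE 0.27, adjusted p = 0.784, limma), and −0.07 without ST of pig 3.

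IGFBP4, a binding protein cleaved by the protease PAPPA, is on the minus strand at chr12:21961645-21980211 (ENSSSCG00000017472). Its level was 5.09, 4.36 and 5.001 summed FPKM in LT, against 5.85, 4.43 and 5.57 in ST. ST was higher in all 3 pigs by small steps, and the groups overlapped. Its log2 fold change was 0.12 (SE 0.19, adjusted p = 0.765, limma), which is about the median of all genes, and quantile normalization turned it to −0.06.

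IGFBP3 was likewise looked up by position after the files had been seen, on chr18:50002921-50009425 in RefSeq. The span is covered on the plus strand by an assembled transcript without an Ensembl gene, at 1.06, 0.733 and 0.834 FPKM in LT, against 1.07, 1.11 and 1.39 in ST. The groups did not overlap, although LT and ST of pig 1 were nearly equal, and the log2 fold change was 0.40 (SE 0.24, adjusted p = 0.394, limma). An lncRNA on the minus strand, LNC_005423 at chr18:50003107-50009368, lies in the same span, at 0.0604 to 0.246 FPKM. The match used position without strand, so the plus-strand transcript is taken as IGFBP3 by position alone.

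The 5 binding proteins summed to 230, 202 and 166 FPKM in LT, against 292, 238 and 261 in ST. The sums did not overlap, with an exact permutation p of 0.1. Without IGFBP7 they were 70.6, 97.5 and 34.8 in LT, against 69.2, 66.1 and 53.2 in ST, and overlapped. IGFBP7 made up 51.8% to 79.6% of the total, and its share was higher in ST in all 3 pigs. In pig 3 the step was small, 79.0% in LT against 79.6% in ST. The shares of IGFBP7 overlapped between the muscles, with an exact permutation p of 0.3. The share of IGFBP4 was 2.21%, 2.16% and 3.01% in LT, against 2.001%, 1.86% and 2.13% in ST, so it was lower in every ST library while its level was not. Shares of 1 total depend on each other.

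**Figure D3:**
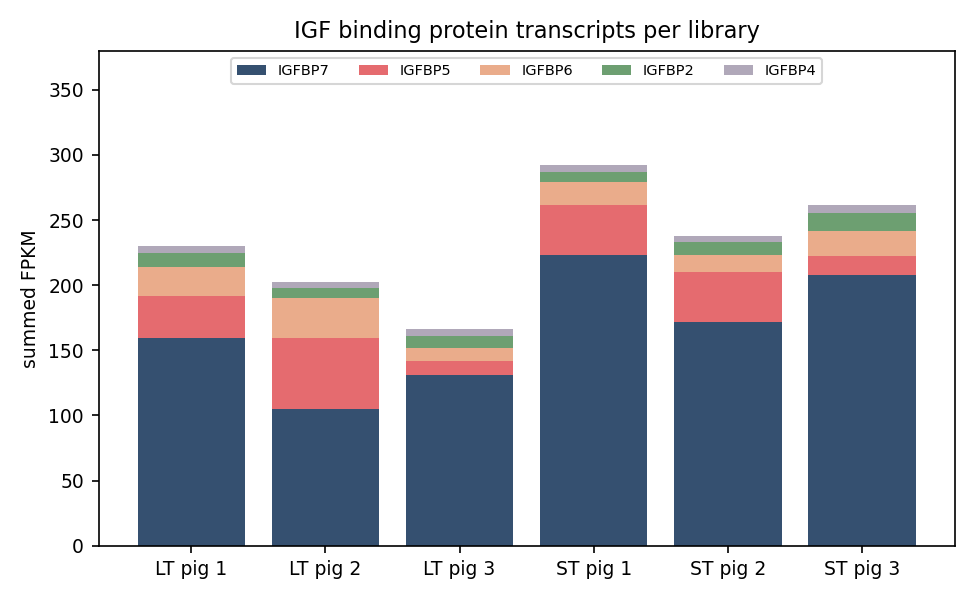
Summed FPKM of the 5 binding proteins found by symbol (vertical axis), stacked for each library (horizontal axis, LT and ST of pigs 1 to 3). IGFBP7 is the largest block of every bar, from 51.8% to 79.6%, and total height runs from 166 to 230 in LT, against 238 to 292 in ST.

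In total, the 8 members had 22 transcripts in the files. Of these, 18 passed 0.1 FPKM in at least 1 library and were tested, and 4 did not, including 1 listed at 0 throughout. None of the 18 was called, where 0.146% of all transcripts were. An unadjusted p under 0.05 was reached by 4 of 18, in contrast to 9.69% of all transcripts, and 4 of 18 did not overlap between the muscles, in contrast to 16.3%. These 4 were 3 transcripts of IGFBP7 and the short transcript of IGFBP6.

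For 6 of 8 members, and for 64.0% of all genes, the range of the 3 pig means on the log2 scale exceeded the difference between the muscle means, the exceptions among the members being IGF1R and IGFBP7. A range over 3 means and a difference of 2 means are not like measures, and the share of members was not tested against that of all genes.

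Markers of other cells were set beside the members. Of 8 listed endothelial markers 7 were tested, and PECAM1, CDH5 and ESAM, which join endothelial cells to each other, rose in ST by log2 fold changes of 1.39, 1.22 and 1.13 (adjusted p = 0.0438, 0.0408 and 0.0402, limma). All 7 had a log2 fold change above 0, 6 of 7 had an unadjusted p under 0.05 and a higher level in ST, in contrast to 13.0% of all genes, and VWF had no gene under its symbol. Their summed FPKM was 94.3, 66.9 and 77.1 in LT, against 209, 146 and 173 in ST. In this sum pig 1 was highest and pig 2 lowest in both muscles, and the pigs kept this order in IGFBP7 too. Of the single markers, KDR in LT, ESAM in ST and CLDN5 in both muscles did not keep it. PECAM1 alone ran from 25.0 to 90.6 summed FPKM and so weighs heavily in the sum. None of 7 smooth muscle and pericyte markers was called and 1 was with the pig block, where 0.574% and 4.06% of all genes were called. All 7 had a log2 fold change above 0, and 4 of 7 had an unadjusted p under 0.05 and a higher level in ST, where 13.0% of all genes did. Their summed FPKM ran from 166 to 194 in LT, against 255 to 334 in ST. The part of these markers in the IGFBP7 result was not tested.

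Of 8 fibroblast markers 0 were called, where 0.574% of all genes were. They summed to 1364, 1082 and 645 FPKM in LT, against 1257, 966 and 689 in ST. In this sum pig 3 was lowest in both muscles, as it was for IGFBP5 and IGF1. The markers were divided, with COL1A1, COL1A2, COL3A1 and LUM lowest in pig 3 in both muscles. DCN, PDGFRA, FBLN1 and DPT were lowest in pig 2 in ST. In LT, DPT was lowest in pig 2 as well, while DCN, PDGFRA and FBLN1 were lowest in pig 3. COL3A1 alone ran from 203 to 662 summed FPKM and so weighs heavily in the sum. The part of fibroblasts in the values of IGFBP5 and IGF1 was not tested. Of 6 adipocyte markers 5 had a log2 fold change below 0, and LPL, a lipase also made by muscle fibres, rose in ST with 62.1, 74.0 and 62.6 summed FPKM in LT, against 169, 173 and 186 in ST (log2 fold change 1.41, adjusted p = 0.0259, limma). None of the 5 satellite cell, 6 macrophage, 4 nerve and Schwann cell, and 3 blood markers tested was called, where 0.574% of all genes were.

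**Figure D4:**
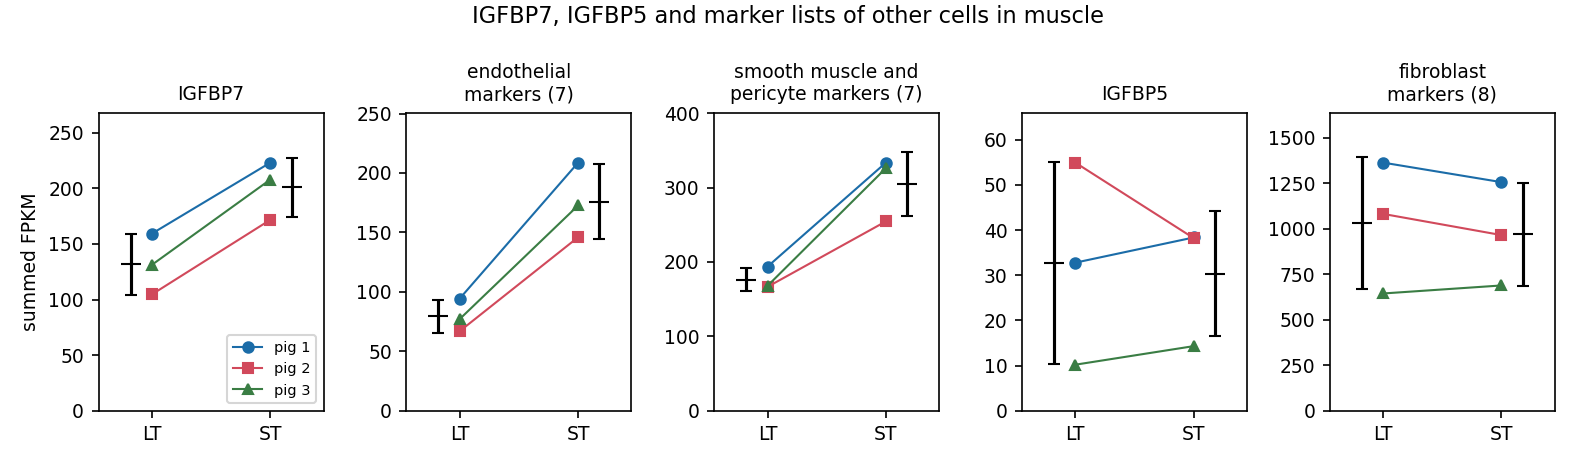
Summed FPKM (vertical axes, each from 0) of IGFBP7, of 7 endothelial and 7 smooth muscle and pericyte markers, of IGFBP5 and of 8 fibroblast markers, in LT and ST; lines join both muscles of 1 pig, and bars show the mean and SD of 3 libraries. The endothelial sum runs from 66.9 to 94.3 in LT, against 146 to 209 in ST, and pig 3 is lowest for IGFBP5 and for the fibroblast sum in both muscles.

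Around the axis, 62 further genes of IGF binding and release, IGF2 transcript regulation, growth hormone input, insulin receptor and adaptors, and the PI3K-AKT-mTOR and RAS-MAPK branches were listed, and 52 were tested. Only IRS2 was called, 1 of 52, where 0.574% of all genes were. An unadjusted p under 0.05 was reached by 18 of 52, with 11 higher and 7 lower in ST, where 18.8% of all genes reached it, and 18 did not overlap, where 24.7% of all genes did not. The median log2 fold change was 0.19. With the pig as a block 3 genes were called, IRS2, GRB14 and PDPK1, where 4.06% of all genes were. Without ST of pig 2 the number was 4, with INSR added, where 5.08% of all genes were. Without any other single library it was 0.

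IRS2, a substrate that passes the signal of IGF1R and of the insulin receptor to PI3K, was at 3.89, 3.07 and 5.53 summed FPKM in LT, against 10.7, 13.7 and 11.8 in ST. All ST values were well above all LT values. The gene rose by 1.55 on the log2 scale (SE 0.24, adjusted p = 0.0427, limma), and the call was lost in 9 of 16 alternatives, with an adjusted p from 0.0261 to 0.172 and a log2 fold change from 1.36 to 1.77. IRS1, the other main substrate, was at 33.8, 16.6 and 13.6 summed FPKM in LT, against 10.2, 14.8 and 5.39 in ST. It was lower in ST in all 3 pigs with overlap of the muscles, and its log2 fold change of −1.07 was not called (adjusted p = 0.237).

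INSR, the insulin receptor, was at 5.63, 5.03 and 7.94 summed FPKM in LT, against 17.0, 6.18 and 16.4 in ST. ST of pig 2 lay within the range of LT, apart from the other ST libraries. The log2 fold change was 0.97 (adjusted p = 0.236, limma), or 1.44 without that library (adjusted p = 0.0196). Leaving out the lowest ST library can only raise the difference, and leaving out any other single library gave an adjusted p from 0.272 to 0.484. GRB14, an adaptor that inhibits the insulin receptor, was at 0.368, 0.303 and 0.159 summed FPKM in LT, against 2.87, 0.803 and 2.72 in ST. Its groups were separated, again with pig 2 lowest in ST. On the log2 scale GRB14 differed by 2.43, with an adjusted p of 0.0675 by limma, 0.0335 with the pig block and 0.00494 without ST of pig 2. Without any other single library its adjusted p was from 0.153 to 0.206. For GRB10, the related adaptor, the log2 fold change was 0.32 (adjusted p = 0.504).

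In the PI3K-AKT-mTOR branch 0 of 18 genes were called, where 0.574% of all genes were. An unadjusted p under 0.05 was reached by 6, with 4 higher and 2 lower in ST, where 18.8% of all genes reached it. PDPK1, the kinase that activates AKT, was at 4.42, 3.78 and 5.98 summed FPKM in LT, against 12.1, 5.96 and 12.2 in ST. LT of pig 3 and ST of pig 2 were nearly equal. The log2 fold change was 1.03, with an adjusted p of 0.142 by limma, 0.0387 with the pig block and 0.0219 without ST of pig 2. That library was the lowest of ST, and without any other single library the adjusted p was from 0.183 to 0.359. On the log2 scale MTOR, the kinase of the growth complexes, differed by 0.59 (adjusted p = 0.229), AKT2 by −0.08 (adjusted p = 0.823) and FOXO1, a transcription factor that AKT holds back, by −0.04 (adjusted p = 0.958). FOXO1 was in none of the lists. The 2 genes lower in ST, RPS6KB1 and RPS6KB2, encode the S6 kinases downstream of MTOR and were picked out after their values were seen. RPS6KB1 was at 9.39, 10.05 and 10.3 summed FPKM in LT, against 7.30, 7.74 and 6.72 in ST, with separated groups and a log2 fold change of −0.44 (adjusted p = 0.190, limma). RPS6KB2 was at 4.52, 2.96 and 4.54 summed FPKM in LT, against 2.37, 2.24 and 3.13 in ST, with overlap of the groups and a log2 fold change of −0.61 (adjusted p = 0.229, limma). AKT1 had no gene under its symbol.

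In the RAS-MAPK branch 0 of 9 genes were called, where 0.574% of all genes were. An unadjusted p under 0.05 was reached by 4, with 2 higher and 2 lower in ST, where 18.8% of all genes reached it. HRAS, a small GTPase, was at 44.7, 37.6 and 28.6 summed FPKM in LT, against 20.6, 21.8 and 21.1 in ST. All LT values were above all ST values, and the log2 fold change was −0.78 (SE 0.20, adjusted p = 0.103, limma).

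Of the growth hormone input, which drives IGF1, 0 of 6 genes were called, where 0.574% of all genes were. GHR, the growth hormone receptor, was at 12.9, 32.2 and 66.9 summed FPKM in LT, against 31.2, 29.5 and 29.1 in ST. LT spread far more than ST, and the log2 fold change was −0.02 (adjusted p = 0.986, limma). STAT5A, which carries the signal to the nucleus, was at 5.59, 4.16 and 4.37 in LT, against 3.46, 2.66 and 2.71 in ST, without overlap (log2 fold change −0.66, adjusted p = 0.148).

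Of the genes for IGF binding and release, 0 of 8 were called, where 0.574% of all genes were. IGFALS, the subunit that keeps IGF complexes in blood, was low at 0.155, 0.0831 and 0.261 summed FPKM in LT, against 0.390, 0.384 and 0.510 in ST. The groups did not overlap, and the log2 fold change was 1.03 (adjusted p = 0.151, limma). On the log2 scale PAPPA differed by 0.46 (adjusted p = 0.468) and STC2, its inhibitor, by 0.55 (adjusted p = 0.367), both with overlap. Among the regulators of IGF2 transcripts, 0 of 2 were called, with IGF2BP2, an mRNA-binding protein, at −0.05 (adjusted p = 0.924). ZBED6, a repressor of IGF2, had no gene under its symbol. IGFBP1, IGFBPL1, IGF2BP1, INS and IRS4 did not exceed 0.1 FPKM in any library.

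The files also hold lncRNAs near the members, within 100000 bp, the window in which the study sought cis-targets. There were 16 near the 8 members, of which 15 were tested. Of these, 0 were called and 0 had an unadjusted p under 0.05, where 0.146% and 9.69% of all transcripts did. They were low, up to 2.24 FPKM for 1 near IGFBP6. At the IGF2 position, the annotated lncRNA ENSSSCT00000084501 at chr2:1381841-1384446, 84686 bp away on the same strand, was at 33.2, 62.9 and 12.1 FPKM in LT, against 74.5, 50.2 and 305 in ST. A single library, ST of pig 3, was far above the others, and the muscles overlapped (adjusted p = 0.539, limma). A shorter lncRNA transcript, ENSSSCT00000081255 at chr2:1381839-1383160, overlaps it on the same strand. It was at 33.8 FPKM in LT of pig 3 and at most 0.824 elsewhere. Overlapping transcripts share fragments by estimation, so the values of both in LT of pig 3 cannot be read separately.

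On the opposite strand, 6 of 8 members overlapped an assembled mRNA without annotation, as did 42.9% of 9963 Ensembl genes with a mean of at least 1 summed FPKM. IGFBP6 and IGFBP7 had none. Such a transcript across IGF2R had 48 exons, the number of IGF2R itself, at 6.73% to 10.7% of its level. The percentage was 4.37% to 5.49% for IGFBP5, 3.90% to 12.1% for IGF1, 1.91% to 10.04% for IGF1R, 11.6% to 18.7% for IGFBP2 and 12.7% to 18.2% for IGFBP4. At the IGF2 position it was 15.7% to 22.0%. The libraries were made with a directional kit, and what produced the opposite-strand signal was not tested.

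Genes with the profiles most like those of IGFBP7 and IGF1R, the members with the smallest p, were sought among 11096 genes by the root mean square distance of centred log2 levels over the 6 libraries. GBP2 (distance 0.0475) and SLC50A1 (0.0588) were nearest to IGFBP7. GBP2 was at 2.44, 1.53 and 1.83 summed FPKM in LT, against 3.25, 2.67 and 3.18 in ST. NLRX1 (0.0523) and DOCK9 (0.0529) were nearest to IGF1R, and DOCK9 was at 11.3, 9.52 and 15.6 in LT, against 21.1, 14.5 and 20.7 in ST. In both members and in these genes LT of pig 2 was the lowest library, a likeness for which these genes were chosen.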

How the data were processed

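Libraries of total RNA from LT and ST, 3 per muscle, were made after rRNA depletion with a directional kit. Reads were filtered with SOAPnuke, mapped to Sscrofa11.1 with HISAT2 and assembled with StringTie, and the authors deposited FPKM per transcript and library. FPKM divides fragments by transcript length and by all mapped fragments, so large classes of RNA affect every value, and overlapping transcripts share fragments by estimation.

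Here FPKM was summed over the mRNA transcripts of each gene, and 14657 gene identifiers were given symbols. ST and LT were compared with limma 3.58.1 (R 4.3.3) after conversion to log2(FPKM + 0.1), with an intensity trend of the variance, for genes above 0.1 FPKM in at least 1 library, with Benjamini-Hochberg adjustment over all genes or transcripts tested. Fold changes on this scale understate those of low genes. The fit was run on simulated data with changes far larger than those of the members, which does not show how it handles differences of their size. Exact permutation tests were 2-sided. Python 3.11.15, pandas 2.3.3, numpy 2.4.6, scipy 1.17.1 and matplotlib 3.10.9 were used. Pairing by pig comes from the sampling of both muscles in each pig and the replicate numbers. Deviations from the muscle means correlated at 0.261 to 0.292 across genes for the same pig and at −0.185 to −0.109 otherwise.

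The members and lists were chosen with earlier results of these data known. Named were all members, their transcripts with at least 10% of the gene in some library, the 8 pathway genes with the smallest p, a fixed set (INSR, IRS1, GHR, GRB10, AKT1, AKT2, MTOR, FOXO1, PAPPA, STC2, IGF2BP2 and ZBED6) and the 2 nearest profiles of the 2 members with the smallest p. Some items chosen by this rule are not reported here. The IGF2 and IGFBP3 positions and their transcripts, and genes named only as absent or under 0.1 FPKM, were added after the data were seen. Alternatives were pseudocounts of 0.01 and 1, other FPKM filters, the pig block, rescaling to nuclear transcripts, quantile normalization, no variance trend, other transcript sums and leaving out each library.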

Additional observations from a re-analysis of the deposited data

How the results depend on the processing

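None of the 8 members was called in any of the 16 alternatives at the gene level, including the replicate block. None of the member transcripts was called in the 10 alternatives run on transcripts, where a mean FPKM of at least 1 left 13 of 18 tested. The number of members with an unadjusted p under 0.05 was 2 in the reported fit, 1 without LT of pig 1, and 0 without LT of pig 2, ST of pig 1 or ST of pig 3 and with quantile normalization. IGF1R and IGFBP7 kept a positive log2 fold change in all 16 alternatives, from 0.44 to 0.84 and from 0.42 to 0.77. The log2 fold change changed sign with quantile normalization for IGF2R (−0.0129), IGFBP4 (−0.0573) and IGFBP5 (−0.0191), which moved the median of all genes from 0.13 to −0.00556. Leaving out single libraries gave −0.18 to 0.65 for IGF1, −0.0704 to 0.41 for IGFBP2, −0.62 to 0.59 for IGFBP5 and −0.65 to 0.13 for IGFBP6. It gave −0.63 to 0.55 for GHR, −0.37 to 0.15 for FOXO1 and −0.13 to 0.00984 for IGF2BP2, and GHR was at 0.0172 after rescaling to nuclear transcripts and at 0.33 with the highest transcript alone. The reasons for these sign changes were not tested.

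The count of pathway genes called, 1, was 0 without a filter on FPKM, with quantile normalization, without a variance trend and with the highest transcript alone, and 0 to 4 when single libraries were left out. It was 3 with the replicate block, which pairs the muscles of each pig, added GRB14 and PDPK1 and changed no other call among members and pathway genes. Over all genes, 113 were called in the reported fit, 799 with the block and 991 without ST of pig 2, and from 6 to 61 without a filter, with quantile normalization, without a variance trend or with the highest transcript alone. Leaving out any other library gave 12 to 22. Whether samples of 1 muscle differ by animal or by technique was not separated.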
